A study of Mus musculus with 6 samples.

Results

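Macrophages of a healing infarct read the extracellular matrix through integrins and through a second set of surface proteins that are not integrins. Here 9 genes of that second set were examined: the 4 syndecans Sdc1, Sdc2, Sdc3 and Sdc4, the hyaluronan receptor Cd44, dystroglycan (Dag1), the discoidin domain receptors Ddr1 and Ddr2, and basigin (Bsg). They were taken by gene symbol from the 54532 genes of the deposited count table, by a rule that uses no measured value, although earlier results of these data were known when the rule was written. In order to ask whether any of them moves when the α5 integrin chain is removed, 3 ITGA5 fl/fl and 3 Myα5KO libraries were compared. Both groups carried floxed Itga5 alleles on a C57BL/6 background, were infarcted at an age of 12 weeks by tying off the left anterior descending artery without reperfusion and were studied 7 days later. Myα5KO mice additionally carried LyzM-Cre, a Cre recombinase driven by the lysozyme M promoter, which acts in myeloid cells as a class and not in macrophages alone. The control littermates carried no Cre, so that in these libraries an effect of Cre itself and the loss of the integrin cannot be told apart. The study also infarcted mice with LyzM-Cre alone. It reports that ejection fraction, end-diastolic volume and vessel density did not differ significantly from those of Cre-negative littermates after 7 days. Cells were obtained from digested hearts of individual mice by magnetic removal of Ly6G+ cells and retention of CD11b+ cells, and their polyadenylated RNA was sequenced.

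The receptors differ in what they bind and in what they do with it. Syndecans are transmembrane proteoglycans whose heparan sulphate chains hold fibronectin, thrombospondin, laminins and growth factors, and syndecan-4 is known as a co-receptor that cooperates with α5β1 integrin when cells adhere to fibronectin. CD44 binds hyaluronan and also osteopontin, and marks activated leukocytes. Dystroglycan links laminins to dystrophin, the discoidin domain receptors are tyrosine kinases that bind collagens, and basigin (CD147, EMMPRIN) induces matrix metalloproteinases and escorts lactate transporters to the cell surface.

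The targeted gene was examined first. Itga5 had 653, 568 and 599.6 CPM (counts relative to the library total after TMM scaling in edgeR) in ITGA5 fl/fl libraries and 50.0, 49.0 and 47.1 CPM in Myα5KO libraries, so that 8.02% of the control level remained (log2 fold change -3.64, SE 0.08, edgeR adjusted p = 4.42e-12). Its partner chain Itgb1 had 752 ± 4.45 and 708 ± 44.7 CPM (SD, n = 3 each), a difference that was not significant (log2 fold change -0.09, edgeR adjusted p = 0.503). Library totals ran from 15424451 to 18419287 counts, and 7 of 7 macrophage markers were tested, with a summed level of 7547 to 7671 CPM in ITGA5 fl/fl and 7282 to 7606 CPM in Myα5KO libraries. In the edgeR quasi-likelihood test, 1271 of 14522 genes (8.75%) had an adjusted p of 0.05 or less and are called changed, 517 of them higher (3.56%) and 754 lower (5.19%) in Myα5KO macrophages. The higher genes were 40.7% of the calls, against 70.1% with scaling by library totals alone.

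All 9 receptor genes passed the expression filter. Sdc4 and Cd44 fell in Myα5KO macrophages, by 27.1% and 23.1%, and these 2 genes were the only members called, which is 22.2% of 9 against a background of 5.19% of tested genes called lower. DESeq2, which called 8.46% of all tested genes, called the same 2 members. No member was called higher by edgeR or DESeq2. At an unadjusted edgeR p under 0.05, 0 members had a positive change and 4 had a negative one (Sdc1, Sdc2, Sdc4 and Cd44). That cut was passed by 23.1% of all tested genes, counting either direction. The 3 libraries of each group were fully separated for 5 members, 4 lower (the same 4 genes) and 1 higher (Ddr2), against 28.6% of all tested genes, 13.8% lower and 14.9% higher. The median log2 fold change of the 9 genes was -0.02, beside 0.01 for all tested genes, and it was 0.06 with scaling by library totals alone, a setting in which Sdc4 and Cd44 remained called lower. With 3 libraries a group, all p-values rest on the spread between these individual hearts. In the edgeR test the spread of each gene was also drawn toward a trend over all tested genes.

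**Figure D1:**
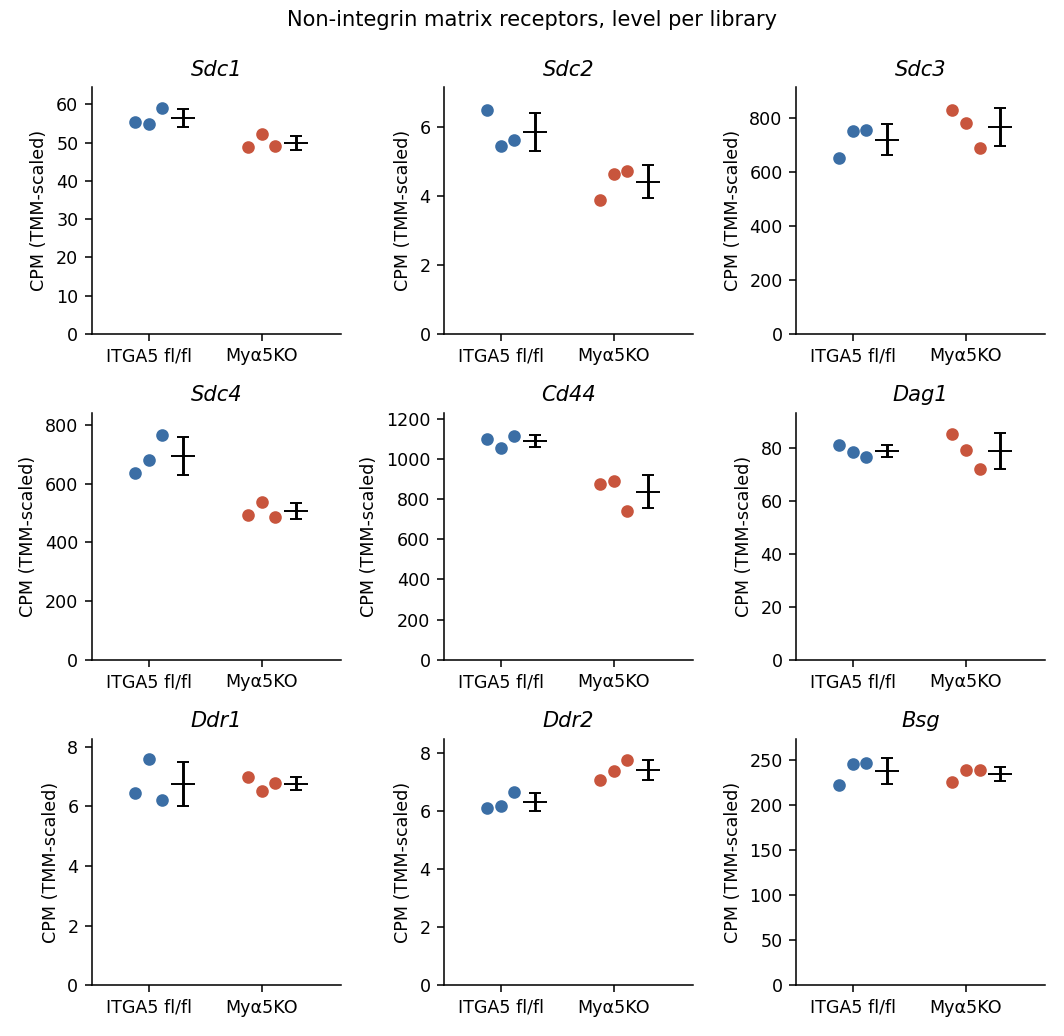
Level of each receptor gene in each library in TMM-scaled CPM on the vertical axis, which starts at 0, with 1 point per library, ITGA5 fl/fl in blue and Myα5KO in red, and the bar giving mean ± SD of the 3 libraries. For Sdc4 and Cd44 the 3 Myα5KO points lie below all ITGA5 fl/fl points, whereas those of Sdc3, Dag1, Ddr1 and Bsg overlap between the groups.

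Sdc4 (ENSMUSG00000017009, GRCm38 chromosome 2, 164424247 to 164443887, minus strand) had the largest estimated decrease among the members. It had 638, 682 and 766 CPM in ITGA5 fl/fl libraries and 495, 539 and 487 CPM in Myα5KO libraries. The highest Myα5KO library lay below the lowest control library. The group means were 695 ± 64.7 and 507 ± 27.8 CPM (SD, n = 3 each), and the log2 fold change was -0.46 (SE 0.08, 95% interval -0.63 to -0.28, edgeR adjusted p = 0.00378). Omission of any single library left Sdc4 called (6 of 6 fits), with log2 fold changes from -0.51 to -0.38.

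The promoters of Sdc4 and Cd44 are given here because they were the 2 members called lower. RefSeq (GRCm38.p6) listed promoter windows for 7 of the 9 members. The windows of members that were not called were not examined individually, and a link between motifs and levels was not tested. Each window holds 250 bases before and 50 bases after the annotated gene start, on the strand of the gene, and capitals mark matches to any of 5 motifs that were chosen after the values were seen and searched on both strands. The window of Sdc4 spans chr2:164443139-164443438 (minus strand) and that of Cd44 spans chr2:102901616-102901915 (minus strand). The RefSeq start of Sdc4 lies inside the gene span of the deposited table, and that of Cd44 at its end.
Sdc4: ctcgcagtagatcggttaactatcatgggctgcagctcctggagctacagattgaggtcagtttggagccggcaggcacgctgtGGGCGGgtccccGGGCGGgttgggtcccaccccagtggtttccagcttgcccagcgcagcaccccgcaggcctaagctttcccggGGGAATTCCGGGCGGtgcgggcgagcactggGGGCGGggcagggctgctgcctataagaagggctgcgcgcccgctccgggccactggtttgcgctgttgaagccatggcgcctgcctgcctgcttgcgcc
Cd44: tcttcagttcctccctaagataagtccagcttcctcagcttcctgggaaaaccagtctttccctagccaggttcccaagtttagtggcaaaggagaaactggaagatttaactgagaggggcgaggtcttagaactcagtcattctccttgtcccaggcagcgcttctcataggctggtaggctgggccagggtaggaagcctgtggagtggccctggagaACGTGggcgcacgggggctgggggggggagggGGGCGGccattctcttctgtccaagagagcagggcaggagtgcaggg
The Sdc4 window contains the kappaB-type word GGGAATTCC, which begins 81 bases before the gene start and fits the pattern GGGNNTTCC, a pattern found in 5.82% of 32851 promoter windows of the same length. A GC box (GGGCGG, in 35.7% of windows) adjoins it at 72 bases before the start, and 3 further GC boxes begin 166, 154 and 50 bases before the start. In contrast, the Cd44 window holds a single GC box, which begins at base 4 of the transcribed part, and the hypoxia response core ACGTG 29 bases before the start, a word present in 19.6% of windows. Neither window held the AP-1 pattern TGANTCA (7.81% of windows) or the antioxidant response pattern TGACNNNGC (12.4% of windows). No motif was shared by both windows except the GC box.

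The other syndecans did not pass the test. Sdc3 (ENSMUSG00000025743, chromosome 4, 130792537 to 130826319, plus strand), the family member first described in the nervous system, had 653, 752 and 757 CPM in ITGA5 fl/fl and 829, 780.3 and 689 CPM in Myα5KO libraries. The groups overlapped, since ITGA5 fl/fl replicate 1 was the lowest library and Myα5KO replicate 3 lay below the other 2 controls. Means were 720.5 ± 58.7 and 766 ± 71.1 CPM (SD, n = 3 each), with a log2 fold change of 0.09 (SE 0.09, 95% interval -0.09 to 0.27, edgeR adjusted p = 0.583).

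Sdc1 (ENSMUSG00000020592, chromosome 12, 8771323 to 8793715, plus strand), the syndecan of epithelia and plasma cells that is also made by macrophages, had 55.4, 54.9 and 59.1 CPM in controls and 48.8, 52.1 and 49.1 CPM in Myα5KO libraries. The groups were separated by less than 3 CPM, with means of 56.5 ± 2.31 and 50.0 ± 1.84 CPM (SD, n = 3 each). The log2 fold change of Sdc1 was -0.18 (SE 0.07, 95% interval -0.32 to -0.03), and the edgeR adjusted p of 0.131 missed the threshold (unadjusted p = 0.0207). Sdc2 (ENSMUSG00000022261, chromosome 15, 32920723 to 33034935, plus strand), a syndecan typical of mesenchymal cells, was scarce, with 97, 93 and 99 counts in controls and 73, 87 and 90 counts in Myα5KO libraries. This gave 5.87 ± 0.557 and 4.42 ± 0.468 CPM (SD, n = 3 each), with a log2 fold change of -0.40 (SE 0.16, 95% interval -0.74 to -0.06, edgeR adjusted p = 0.139). Thus the estimate for Sdc2 was close to that for Sdc4, but its interval was wider, and at this depth it was not distinguished from no change after adjustment over all genes.

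In order to compare the syndecans with each other, the deposited FPKM values, which are counts per gene length, were used. In each of the 6 libraries Sdc4 held the largest share of the summed syndecan FPKM and Sdc3 the next. The share of Sdc4 was 66.7, 65.4 and 67.7% in ITGA5 fl/fl libraries and 56.1, 59.3 and 59.7% in Myα5KO libraries, and the share of Sdc3 was 29.0, 30.7 and 28.5% against 39.9, 36.5 and 35.9%. Both shares were separated between the groups, with means of 66.6 ± 1.13 and 58.3 ± 1.98% for Sdc4 and 29.4 ± 1.15 and 37.4 ± 2.17% for Sdc3 (SD, n = 3 each). The ratio of Sdc4 to Sdc3 FPKM was 2.30, 2.13 and 2.38 in controls and 1.40, 1.62 and 1.66 in Myα5KO libraries. The summed syndecan FPKM was 408 ± 33.9 in ITGA5 fl/fl and 339 ± 21.2 in Myα5KO macrophages (SD, n = 3 each). These shares depend on the single gene length in the deposited table, because on CPM, without length, the mean share of Sdc3 exceeded that of Sdc4 in both groups (48.8 against 47.0% in ITGA5 fl/fl, 57.6 against 38.2% in Myα5KO). No test was made on the shares. Shares of a library add up to the whole, and Sdc4 and Sdc3 held most of it. A fall of Sdc4 alone therefore raises the share of Sdc3. The level of Sdc3 itself overlapped between the groups. The separated shares and ratio are thus not a result apart from the lower Sdc4, and a rise of Sdc3 was not shown. Among all tested genes, 28.6% had levels without overlap between the groups.

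**Figure D2:**
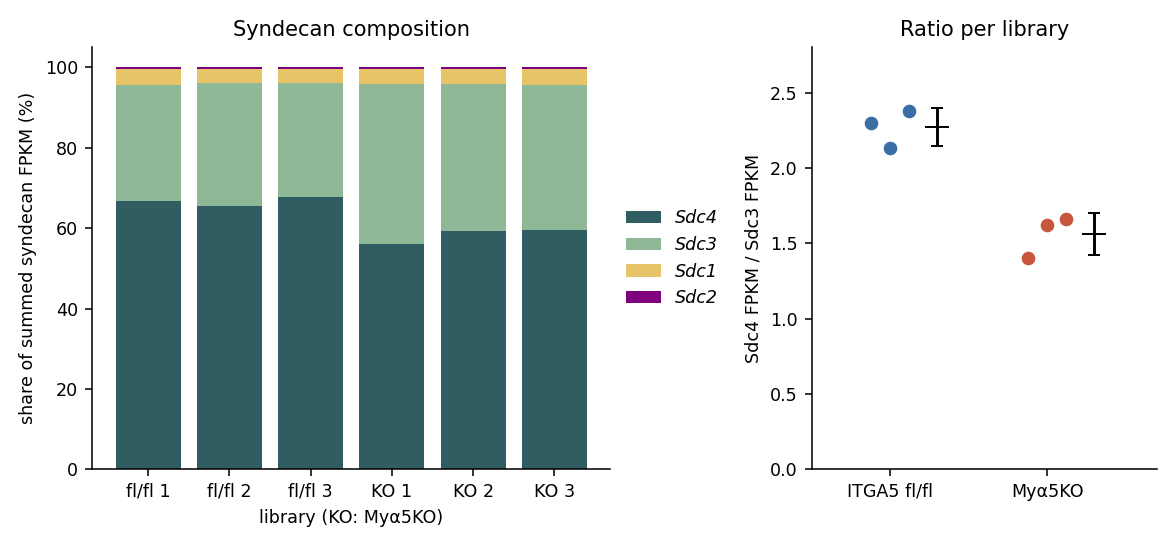
Left, share of each syndecan in the summed FPKM of Sdc1 to Sdc4 in percent, 1 stacked bar per library (KO, Myα5KO). Right, ratio of Sdc4 to Sdc3 FPKM per library with mean ± SD, where the 3 Myα5KO libraries lie between 1.40 and 1.66 and the 3 ITGA5 fl/fl libraries between 2.13 and 2.38.

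Cd44 (ENSMUSG00000005087, chromosome 2, 102811141 to 102901665, minus strand) was the most abundant member in CPM. Libraries from ITGA5 fl/fl hearts had 1101, 1056 and 1115 CPM, and those from Myα5KO hearts had 878, 893 and 744 CPM. All 3 Myα5KO libraries were below all controls, and Myα5KO replicate 3 was lower than the other 2. Means were 1091 ± 31.0 and 838 ± 82.1 CPM (SD, n = 3 each), with a log2 fold change of -0.38 (SE 0.08, 95% interval -0.55 to -0.21, edgeR adjusted p = 0.0104). Its call was lost without ITGA5 fl/fl replicate 3 (estimate -0.36, edgeR adjusted p = 0.0525), and Cd44 was not called by limma on the FPKM scale (adjusted p from 0.0543 to 0.149), so that its call was less firm than that of Sdc4. Cd44 is spliced into a standard form and into variants with additional exons, which gene counts do not separate.

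In bulk libraries, fewer cells that carry a transcript and less of the transcript per cell cannot be told apart. Monocyte markers (4 genes, 2 called higher) summed to 262 to 341 CPM in ITGA5 fl/fl and 396 to 405 CPM in Myα5KO libraries, and neutrophil markers (8 genes, 7 tested, 5 called higher) to 37.4 to 54.6 and 72.0 to 193 CPM. Markers of body cavity macrophages (7 genes, 4 called lower) summed to 103 to 239 and 73.2 to 87.2 CPM, and cardiomyocyte markers (6 genes, 3 called lower) to 20.9 to 23.0 and 12.9 to 16.9 CPM. The body cavity list includes Timd4, which the study also reports as high in resident cardiac macrophages, so that this sum is not specific to cavity cells. Fibroblast markers, with all 8 tested genes negative except for 1 with scaling by library totals alone, summed to 1619.7 to 1899 and 1211 to 1579 CPM, and Postn, the matricellular protein periostin, was the 1 gene of them that was called (log2 fold change -0.40, edgeR adjusted p = 0.0261). The Postn call was lost without ITGA5 fl/fl replicate 1 (-0.26) or 3 (-0.44) or Myα5KO replicate 3 (-0.35). Markers of B and plasma cells (7 genes, 6 tested) summed to 98.8 to 133 and 135 to 216 CPM, and the genes called higher included Cd79b (0.57). In the remaining lists the endothelial genes (297 to 321 and 311 to 359 CPM) included Kdr, called higher (0.26), and Cldn5, called lower (-0.44), the macrophage genes included Fcgr1, called higher (0.27), and the dendritic cell list (93.1 to 121 and 113 to 125 CPM) had 1 of 7 called higher. These single calls were near the threshold: with 1 library omitted, Kdr was called in 0 of 6 fits (0.19 to 0.30), and Cldn5 (-0.58 to -0.37), Fcgr1 (0.24 to 0.29) and Cd79b (0.43 to 0.74) in 2 of 6 each, and DESeq2 called the last 3 but not Kdr. Mural (168 to 185 and 144 to 182 CPM), T and NK cell (4.16 to 5.41 and 6.69 to 8.15 CPM) and mesothelial and epithelial markers (8.48 to 11.5 and 7.73 to 10.5 CPM) had 0 called by edgeR. No marker of these 12 lists was at 0 in all libraries. The part of these other cells in the lower Sdc4 and Cd44 was not tested.

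Dag1, Ddr1 and Bsg had nearly the same mean in both groups. Dag1 (ENSMUSG00000039952, chromosome 9, 108204634 to 108263958, minus strand), whose product is cleaved into a laminin-binding and a membrane-spanning subunit, had 81.2, 78.7 and 76.8 CPM in ITGA5 fl/fl and 85.5, 79.4 and 72.0 CPM in Myα5KO libraries. Its means of 78.9 ± 2.21 and 79.0 ± 6.74 CPM (SD, n = 3 each) gave a log2 fold change of 0.00 (SE 0.07, 95% interval -0.15 to 0.16, edgeR adjusted p = 0.993). The Myα5KO libraries of Dag1 spread over both sides of the controls. Bsg (ENSMUSG00000023175, chromosome 10, 79704491 to 79711969, plus strand) had 221, 245 and 246 CPM in controls and 225, 239 and 238 CPM in Myα5KO libraries. Means were 237 ± 13.9 and 234 ± 7.63 CPM (SD, n = 3 each), with a log2 fold change of -0.02 (SE 0.07, 95% interval -0.17 to 0.12, edgeR adjusted p = 0.885). For both Dag1 and Bsg the 95% interval with TMM scaling stayed within 0.17 of no change on the log2 scale. The estimates depended on the scaling, at 0.08 (SE 0.07) for Dag1 and 0.06 (SE 0.07) for Bsg with library totals alone.

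Both collagen receptor kinases were scarce, with about 100 counts per library. Ddr1 (ENSMUSG00000003534, chromosome 17, 35681567 to 35704621, minus strand) had 96, 129 and 109 counts in ITGA5 fl/fl and 131, 122 and 129 counts in Myα5KO libraries. The level was 6.74 ± 0.736 and 6.76 ± 0.224 CPM (SD, n = 3 each), with a log2 fold change of 0.00 (SE 0.14, 95% interval -0.29 to 0.30, edgeR adjusted p = 0.991). Ddr2 (ENSMUSG00000026674, chromosome 1, 169972307 to 170110762, minus strand), which binds fibrillar collagens and is typical of fibroblasts, had 91, 105 and 117 counts in controls and 133, 138 and 148 counts in Myα5KO libraries. In CPM these were 6.10, 6.17 and 6.66 against 7.08, 7.38 and 7.78, so that Ddr2 was the 1 member with every Myα5KO library above every control. Its log2 fold change was 0.23 (SE 0.13, 95% interval -0.05 to 0.51), which was not significant (edgeR adjusted p = 0.313, unadjusted p = 0.0973). The deposited annotation lists 6 genes that overlap Sdc3, Cd44, Ddr1 or Ddr2, and none of these had more than 12 counts in any library.

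**Figure D3:**
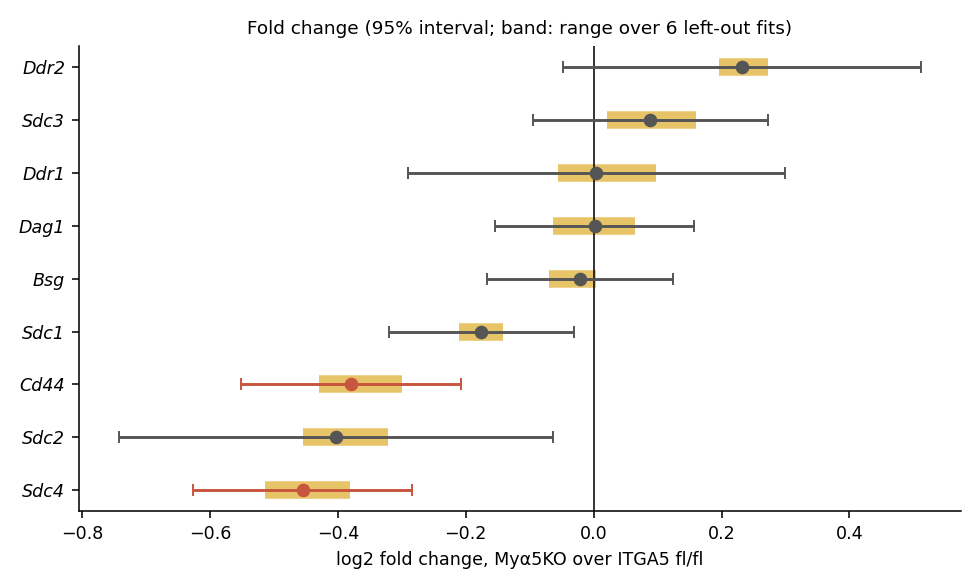
Log2 fold change of each receptor gene, Myα5KO over ITGA5 fl/fl, from edgeR, with points for the estimate, lines for the 95% interval, bands for the range over 6 fits with 1 library omitted, and red for the 2 genes called lower. The bands of Sdc4 (-0.51 to -0.38) and Cd44 (-0.43 to -0.30) stay on the negative side, and those of Dag1, Ddr1 and Bsg cross 0.

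Per gene length, the receptors fell into 3 tiers that were the same in both groups. In ITGA5 fl/fl macrophages Sdc4 had 272 ± 25.5 FPKM, Cd44 160.2 ± 5.08, Bsg 130.3 ± 7.44 and Sdc3 119.8 ± 9.58 FPKM (SD, n = 3 each), which placed these 4 genes between the percentiles 97.0 and 98.9 of tested genes. The libraries of Sdc4, Cd44 and Bsg did not overlap with each other, whereas those of Bsg and Sdc3 did. Sdc1 (14.8 ± 0.633 FPKM) and Dag1 (12.4 ± 0.354 FPKM) formed the middle tier, without overlap. Sdc2 (1.66 ± 0.161 FPKM) and Ddr1 (1.40 ± 0.148 FPKM) overlapped, and Ddr2 (0.678 ± 0.0337 FPKM) was below both.

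In Myα5KO macrophages Sdc4 remained first, with 198 ± 11.8 FPKM. Cd44 moved from the second to the fourth place, since Bsg (128 ± 3.75 FPKM), Sdc3 (127 ± 12.8 FPKM) and Cd44 (123 ± 13.0 FPKM) had overlapping libraries. Sdc1 (13.0 ± 0.530 FPKM) and Dag1 (12.3 ± 1.14 FPKM) now overlapped as well. In the lowest tier Ddr1 (1.41 ± 0.0480 FPKM) lay above Sdc2 (1.24 ± 0.126 FPKM), without overlap, and Ddr2 (0.794 ± 0.0316 FPKM) was again the lowest.

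**Figure D4:**
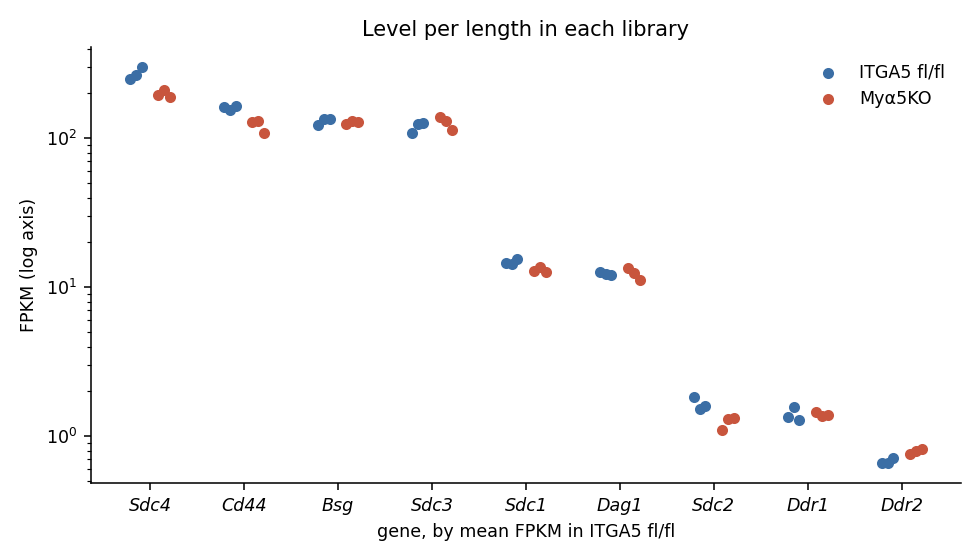
Deposited FPKM of each receptor gene in each library on a log axis, ordered by the mean in ITGA5 fl/fl, ITGA5 fl/fl in blue and Myα5KO in red. Sdc4, Cd44, Bsg and Sdc3 lie above 100 FPKM in all 6 libraries, Sdc1 and Dag1 between 11.1 and 15.5 FPKM, and Sdc2, Ddr1 and Ddr2 below 2 FPKM.

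Next, ligands, partners and enzymes of the receptors were examined in 10 lists. Of 142 listed genes 131 were tested, with 4 called higher and 10 lower (10.7% of 131, beside 8.75% of all tested genes) and a median log2 fold change of -0.03. The balance depended on the scaling, with 13 higher and 5 lower when library totals alone were used, a setting in which Rhog, Tmem2, Slc16a1, Slc3a2 and Lamc1 lost the calls described next.

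Among 21 tested genes that build or edit heparan sulphate, the chains that syndecans carry, 1 was called lower and 2 higher by edgeR, and 1 lower and 1 higher by DESeq2. Over all tested genes edgeR called 5.19% lower and 3.56% higher. Hs6st1, a 6-O-sulphotransferase, fell from 139 ± 5.81 to 102 ± 4.03 CPM (log2 fold change -0.45, edgeR adjusted p = 0.00104) and was called whichever library was omitted. Extl3, which starts and extends chains, rose from 103 ± 9.55 to 125 ± 8.85 CPM (0.28, edgeR adjusted p = 0.0393), and Ndst2, an N-deacetylase and N-sulphotransferase, from 44.0 ± 0.190 to 51.6 ± 0.794 CPM (0.23, edgeR adjusted p = 0.0425). Both rises were near the threshold: Extl3 was called in 2 of the 6 fits with 1 library omitted (without ITGA5 fl/fl replicate 1 or Myα5KO replicate 3, range 0.23 to 0.36) and Ndst2 in 0 of 6 (0.22 to 0.24). With median-ratio scaling neither was called, and DESeq2 called Extl3 but not Ndst2. The chain polymerases Ext1 (-0.15, edgeR adjusted p = 0.19) and Ext2 (0.15, edgeR adjusted p = 0.174), chosen for mention after their values were seen, were not called. Of 11 genes for cytoplasmic partners of syndecans, 1 was called: Rhog, a small GTPase that acts downstream of syndecan-4, fell from 329 ± 11.0 to 271 ± 9.14 CPM (-0.28, edgeR adjusted p = 0.0179), with the call lost without ITGA5 fl/fl replicate 2 (-0.29) or 3 (-0.25). Sdcbp, encoding the scaffold syntenin that binds syndecan tails, had 1157 ± 45.6 and 1132 ± 36.5 CPM and was not called (-0.03, edgeR adjusted p = 0.829).

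Of 12 genes for hyaluronan metabolism and CD44 ligands, 2 fell and 0 rose (by edgeR and also by DESeq2, with 1 positive at an unadjusted p under 0.05). These are 16.7% of 12, beside 5.19% of all tested genes called lower by edgeR. Srgn encodes serglycin, a proteoglycan of leukocyte granules that CD44 binds, and fell from 861 ± 39.8 to 678 ± 31.1 CPM (-0.34, edgeR adjusted p = 0.009), a call lost without ITGA5 fl/fl replicate 2 (-0.31). Tmem2, a cell surface protein linked to hyaluronan breakdown, fell from 60.1 ± 4.94 to 48.0 ± 3.87 CPM (-0.33, edgeR adjusted p = 0.0253), a call lost without ITGA5 fl/fl replicate 3 (-0.25), Myα5KO replicate 2 (-0.33) or Myα5KO replicate 3 (-0.27). In contrast, the abundant CD44 ligand Spp1 (osteopontin) had 2548 ± 518 and 2728 ± 405 CPM and was not called (0.10, edgeR adjusted p = 0.711). Of 5 tested linkers between CD44 and the cytoskeleton 0 were called by edgeR or DESeq2, with 2 negative at an unadjusted p under 0.05. These were Iqgap1 (1633 ± 97.3 and 1423 ± 158 CPM, -0.20, edgeR adjusted p = 0.196) and Ezr (200 ± 5.07 and 178 ± 5.29 CPM, -0.17, edgeR adjusted p = 0.109). Moesin (Msn), another abundant linker, had 1057 ± 40.3 and 1060 ± 58.0 CPM.

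The basigin list held 8 tested genes, of which 3 fell, while Bsg itself had the interval given above. Slc16a3 and Slc16a1, the lactate transporters MCT4 and MCT1 that basigin escorts, fell from 293 ± 23.0 to 228 ± 19.2 CPM (-0.36, edgeR adjusted p = 0.0135) and from 42.6 ± 0.606 to 34.2 ± 1.94 CPM (-0.32, edgeR adjusted p = 0.0175). Slc3a2, the CD98 heavy chain, fell from 777 ± 28.0 to 649.9 ± 33.9 CPM (-0.26, edgeR adjusted p = 0.0357). In all 3 genes the groups did not overlap, as in 28.6% of all tested genes (13.8% lower in Myα5KO). The Slc16a3 call was lost without ITGA5 fl/fl replicate 2 (-0.31) or 3 (-0.35), that of Slc16a1 without ITGA5 fl/fl replicate 2 (-0.33) or 3 (-0.31) or Myα5KO replicate 1 (-0.27), and that of Slc3a2 in 5 of 6 fits (-0.29 to -0.22), all but the one without Myα5KO replicate 3. The extracellular basigin ligand Ppia (cyclophilin A) had 592 ± 34.7 and 609.8 ± 50.8 CPM and was not called (0.04, edgeR adjusted p = 0.796).

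For dystroglycan, 0 of 9 tested genes of the dystrophin complex and 0 of 13 tested genes of its glycosylation were called by edgeR or DESeq2, with 1 and 2 genes at an unadjusted p under 0.05, all positive. Likewise 0 of 12 tested genes for shedding and intramembrane cleavage of receptor ectodomains were called by either tool, with 1 positive and 1 negative at an unadjusted p under 0.05. The sheddases Adam10 (219 ± 4.97 and 233 ± 21.3 CPM) and Adam17 (292 ± 13.9 and 300.5 ± 12.2 CPM) had overlapping libraries.

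The genes of matrix proteins that these receptors bind had mostly negative changes. Of 21 tested ligand genes 20 had a negative log2 fold change (16 when library totals alone were used), and the median was -0.29, beside 0.01 for all tested genes. Over all 14522 tested genes, 6854 had a negative log2 fold change. Of the ligand genes, 3 were called lower and 0 higher by edgeR, beside 5.19% and 3.56% of all tested genes. At an unadjusted edgeR p under 0.05, 11 were negative and 0 positive, a cut that 23.1% of all tested genes passed in either direction. DESeq2 called 5 lower, among them Thbs1 and Lamc1 but not Fn1. The list was fixed with earlier results of these data known. Fn1, encoding fibronectin, which α5β1 integrin and syndecan-4 both bind, had 2446, 4042 and 3653 CPM in ITGA5 fl/fl libraries and 2442, 2061 and 1593 CPM in Myα5KO libraries. One control was barely above the highest Myα5KO library, and the log2 fold change was -0.73 (SE 0.17, edgeR adjusted p = 0.0163), with the call lost without ITGA5 fl/fl replicate 2 (-0.59) or 3 (-0.68) and with DESeq2 (adjusted p = 0.0535, where the alternatives other than the fit without a count filter spanned 0.00172 to 0.286). Thbs1, encoding thrombospondin-1, fell from 6271 ± 513 to 4099.8 ± 922 CPM (-0.61, edgeR adjusted p = 0.0135, not called without ITGA5 fl/fl replicate 3 at -0.55). Lamc1, the laminin γ1 chain, fell from 232 ± 10.8 to 183 ± 22.1 CPM (-0.34, edgeR adjusted p = 0.0229) and was called in 2 of 6 fits with 1 library omitted (without Myα5KO replicate 1 or 3, range -0.43 to -0.25). The list shares Col1a1, Col1a2 and Col3a1 with the fibroblast markers above, and the part of fibroblasts in these values was not tested.

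Of 19 further matrix receptors that are not integrins, 2 rose and 0 fell, by edgeR and also by DESeq2. These are 10.5% of 19, beside 8.75% of all tested genes called by edgeR in either direction and 3.56% called higher. The median log2 fold change of the list was -0.10, with 11 genes negative and 8 positive. At an unadjusted edgeR p under 0.05, 3 were negative (Gpc4, Gpc6 and Mrc2). Lair1, an inhibitory collagen receptor of leukocytes, rose from 159 ± 3.41 to 195 ± 4.19 CPM (0.29, edgeR adjusted p = 0.0097, not called without ITGA5 fl/fl replicate 3 at 0.28). Nrp1, encoding neuropilin-1, a co-receptor for semaphorins and VEGF that can carry glycosaminoglycan chains, rose from 199 ± 8.82 to 252 ± 21.7 CPM (0.34, edgeR adjusted p = 0.0137), with the call lost without ITGA5 fl/fl replicate 2 (0.31) or Myα5KO replicate 2 (0.32). The genes that were not called included Cd36 (420.4 ± 63.1 and 371 ± 29.2 CPM, edgeR adjusted p = 0.289) and Cd47 (308 ± 33.0 and 278 ± 29.7 CPM, edgeR adjusted p = 0.365). They also included the endocytic collagen receptor Mrc1 (953 ± 34.9 and 878 ± 88.9 CPM, edgeR adjusted p = 0.418).

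**Figure D5:**
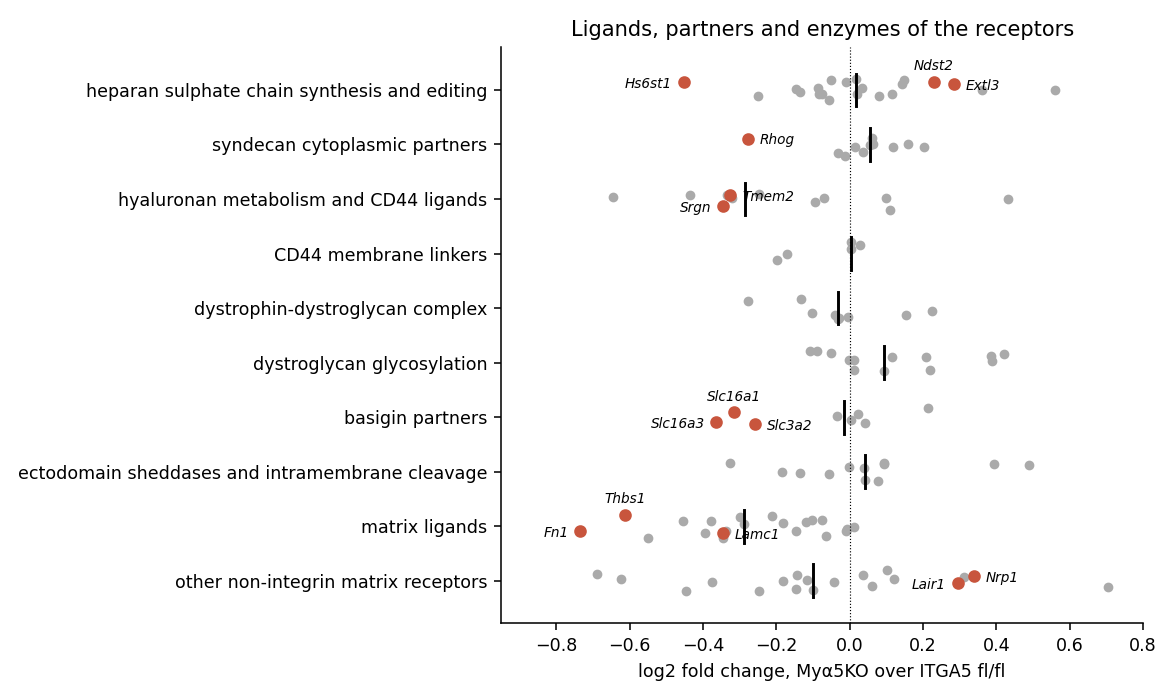
Log2 fold change, Myα5KO over ITGA5 fl/fl, of each tested gene in 10 lists of ligands, partners and enzymes of the receptors, 1 point per gene (spread vertically for legibility), red and named where called, grey otherwise, with a black line at the median of the list. In the matrix ligand list 20 of 21 points lie left of 0, and the medians of the other lists lie between -0.28 and 0.09.

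Finally, the genes whose level most resembled that of the 2 members that fell were listed, over the 6 libraries and 9319 well expressed genes. Sdc4 was followed most closely by Hmox1, encoding heme oxygenase-1 (Pearson r = 0.998 on log2 CPM), and by Scpep1 (r = 0.997), and 459 genes (4.93%) had an r of at least 0.9 with it. For Cd44 the closest were Zswim4 and Ppp2ca, both with an r of 0.999, among 670 genes (7.19%) with an r of at least 0.9. Hmox1 (log2 fold change -0.76, edgeR adjusted p = 0.00143) and Zswim4 (-0.54, edgeR adjusted p = 0.0032) fell, whereas Scpep1 (-0.18, edgeR adjusted p = 0.106) and Ppp2ca (-0.18, edgeR adjusted p = 0.0981) were not called. With 6 libraries in 2 groups, a gene that differs between the groups in the same direction tends to correlate with these members, and the coefficients describe these libraries only.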

How the data were processed

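RNA-seq of Ly6G-CD11b+ cardiac cells from 3 ITGA5 fl/fl and 3 Myα5KO mice was used, with groups and replicate numbers taken from the sample titles. The submitters' processing notes name TopHat2 2.0.9, Cufflinks 2.1.1 and HTSeq 0.6.1 and the builds mm10 and GRCm38.p6. The authors counted reads per gene with HTSeq, and the deposited counts are whole numbers without normalization. How strand and multi-mapped reads were handled is not given in the sources used here. The authors also deposited FPKM, and each value equals its count over the deposited gene length times 1 factor per library. Totals of 15424451 to 18419287 counts bear on counting error only and not on the spread between mice. Reads carried no molecular identifiers.

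Genes were filtered with filterByExpr (minimum count 10, minimum total count 15) and tested with edgeR 4.0.16 in R 4.3.3 (TMM, quasi-likelihood test, two-sided, Benjamini-Hochberg over 14522 genes). No covariate was used. The study's methods name DESeq2. Alternatives were DESeq2 1.42.0, limma 3.58.1 with trend on log2(FPKM + 1) and log2(FPKM + 0.1) (genes with 1 FPKM or more in 3 libraries or more) and on log2(FPKM + 1) without that filter, median-ratio and library-total scaling, a minimum of 10 counts in every library, no count filter, the replicate number as a block, and each library left out in turn. Fold changes on FPKM are on the log2(FPKM + pseudocount) scale, which understates changes of low genes.

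The members and lists were chosen with earlier results of these data known. Named genes are the 9 members, Itga5, Itgb1, the called genes of each related list (at most 4), called genes of 4 marker lists (macrophage, fibroblast, endothelial, B and plasma cell), and for each called member the 2 genes with the highest Pearson r on log2 CPM (mean of at least 100 counts per library). One gene under this rule is not reported here. Other genes were named after their values were seen. Promoter windows came from RefSeq (GRCm38.p6). Scripts were tested on simulated data. Libraries of 1 group differed by more than sampling noise (chi-square per degree of freedom at least 5.15). No protein sequence was used here.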

Additional observations from a re-analysis of the deposited data

How the results depend on the processing

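Sdc4 was called lower in 14 of 15 alternatives and Cd44 in 11 of 15, both with a negative log2 fold change in each, and adjusted p over the alternatives ran from 9.7e-07 to 0.117 for Sdc4 and from 7.74e-05 to 0.149 for Cd44, leaving out the fit without a count filter, whose prior degrees of freedom were infinite. The number of members called lower was 1 with limma on log2(FPKM + 1) and on log2(FPKM + 0.1), where Ddr2 did not pass the filter, 0 on log2(FPKM + 1) without the FPKM filter, and 1 to 2 when a library was left out. The number called higher was 0 under each alternative. The FPKM fits called 472, 448 and 10 genes in all, against 1271, and the cause was not tested. Related genes called higher numbered 2 with median-ratio scaling, 13 with library totals, 1, 1 and 0 in the 3 FPKM fits, and 1 to 4 with a library left out. Those called lower numbered 5 with library totals, 17 without a count filter, 4, 4 and 0 in the FPKM fits, and 2 to 13 with a library left out. The fit without ITGA5 fl/fl replicate 3 called 616 genes in all. Without a count filter 1738 genes were called, and library totals called 1730 with a median log2 fold change of 0.10 over all genes, against 0.01. On CPM the syndecan shares were 48.8 and 57.6% for Sdc3 and 47.0 and 38.2% for Sdc4 in ITGA5 fl/fl and Myα5KO.

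Signs reversed only for members that were not called. Dag1 was at -0.0081 with DESeq2 and with median-ratio scaling, -0.014 with 10 counts in every library, -0.0060 on log2(FPKM + 1) with and without the filter, -0.0067 on log2(FPKM + 0.1), and between -0.064 and 0.064 with a library left out. Ddr1 was at -0.0058 with DESeq2, -0.0059 with median-ratio scaling, -0.011 with 10 counts in every library, and between -0.055 and 0.098 with a library left out. Bsg was at 0.059 with library totals and between -0.070 and 0.0042 with a library left out. Itga5 was called in each alternative (-3.69 to -3.51).

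The groups share replicate numbers. The deviations of same-numbered libraries correlated at 0.071, -0.12 and 0.024, so no clear shared signal by number was seen. With 3 libraries a group this cannot exclude a pairing. With the replicate number as a block 1181 genes were called, Sdc4 and Cd44 stayed called, and Dag1 was at -0.0016. At this depth Sdc2, Ddr1 and Ddr2, with about 100 counts per library, had standard errors of 0.13 to 0.16 on the log2 scale.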
